A study of Homo sapiens with 4 samples.

Results

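The axon guidance ligands and receptors of D458 cells were described in 4 messenger RNA libraries. They comprise the semaphorins, plexins, neuropilins, Eph receptors, ephrins, Slits, Robos, netrins and UNC5 receptors, taken by gene symbol from the deposited count table with a minimum of 10 counts in at least 2 of the 4 libraries. Of 16839 gene rows, 65 matched the symbols and 53 reached the minimum, and all 53 passed the filter of the test. The 53 were 18 semaphorins, 9 plexins, 1 neuropilin, 7 Eph receptors, 6 ephrins, 3 Slits, 3 Robos, 1 netrin and 3 UNC5 receptors, with 2 genes, UNC50 and UNC5CL, that carry a matching name but are not netrin receptors. Just below the minimum stood NTN1, with 16 and 7 counts in shNull against 6 and 6 in shSETD8, and EPHB3, with 12 and 2 against 1 and 7. Just inside it stood SLIT3, with 14 and 5 counts in shNull against 13 and 10 in shSETD8.

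D458 is an established medulloblastoma line, a tumour line of the cerebellum. All cells were transduced with lentivirus and then selected for 14 days with 1 µg/mL puromycin. The shNull group carried a non-targeting hairpin and is labelled as SETD8 wild type, and the shSETD8 group carried hairpins against SETD8, the enzyme that places a single methyl group on lysine 20 of histone H4, and is labelled as an 80% knockdown. Each group had 2 libraries from separate clones, and the sources used here do not say which hairpin each clone carried. P-values therefore measure the spread between these clones only.

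Guidance molecules steer growing axons and migrating neurons by attraction and repulsion. Secreted class 3 semaphorins act through a neuropilin that binds the ligand and an A-type or D-type plexin that signals, while most membrane semaphorins bind plexins directly. Ephrins bind Eph receptor tyrosine kinases on neighbouring cells, Slits bind Robos, and netrins bind DCC, neogenin and the UNC5 receptors. In the developing mouse cerebellum, Sema6A, plexin-A2 and plexin-B2 take part in the migration or proliferation of granule cell precursors, the lineage from which part of the medulloblastomas arise.

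Total counts were 44527591 and 40908334 in shNull replicates 1 and 2 and 52627366 and 49064974 in shSETD8 replicates 1 and 2, and the 53 genes took between 0.115% and 0.135% of them. SETD8 itself was at 38.9 and 41.6 CPM in replicates 1 and 2 of shNull and 14.0 and 26.4 CPM in those of shSETD8, so the shSETD8 libraries held 34.7% and 65.5% of the shNull mean. Its log2 fold change was -0.998 ± 0.30 (SE); the edgeR quasi-likelihood adjusted p was 0.421 and the DESeq2 adjusted p 0.055, or 0.0459 with DESeq2 on all gene rows without a filter. The shSETD8 libraries lay further from each other than the shNull libraries did. The SD of their log2 difference was 0.509 against 0.211 among genes averaging at least 100 counts. The line's markers OTX2 and MYC were among its abundant transcripts, at 2114 to 2481 CPM (counts scaled to the library size, with TMM factors) and 2597 to 2954 CPM. BARHL1, another marker of the list, had 0 or 1 counts.

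The class B plexins PLXNB1 and PLXNB2 and the membrane semaphorins SEMA4C and SEMA6A were lower in both shSETD8 libraries than in either shNull library, at between 55.7% and 74.8% of the shNull mean. The secreted semaphorin SEMA3D was higher in both. These were the 5 genes that DESeq2 called among the guidance ligands and receptors. edgeR's quasi-likelihood test called none of the 53, with a lowest adjusted p of 0.362 (EPHA4, PLXNB1 and SEMA4C), and it called none of the 14546 genes tested, a background of 0%. limma-voom also called 0 of the 53 and edgeR's likelihood ratio test 2 (EPHA4 and PLXNB1), against 1.70% of all genes. DESeq2 gave an adjusted p for 52 of the 53 and called 1 higher, or 1.92%, against 0.946% of all genes. It called 4 lower, or 7.69%, against 0.974%. At an unadjusted edgeR p under 0.05, 4 of the 53 were higher (7.55%, against 5.65% of all genes) and 7 were lower (13.2%, against 5.16%). Both shSETD8 libraries lay above both shNull libraries in 8 genes (15.1%, against 22.9% of all genes) and below them in 11 (20.8%, against 22.4%). The last 2 sets of counts include PLXNB3 among the higher and EPHA4 among the lower, and EPHA4 is also in the likelihood ratio count. Each reached the minimum only in the group where it was higher, so its direction was fixed by the rule and lends these counts no support. The median log2 fold change was 0.00 over the 53 and 0.01 over all genes, with 28 of the 53 above 0 and 25 below.

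**Figure D1:**
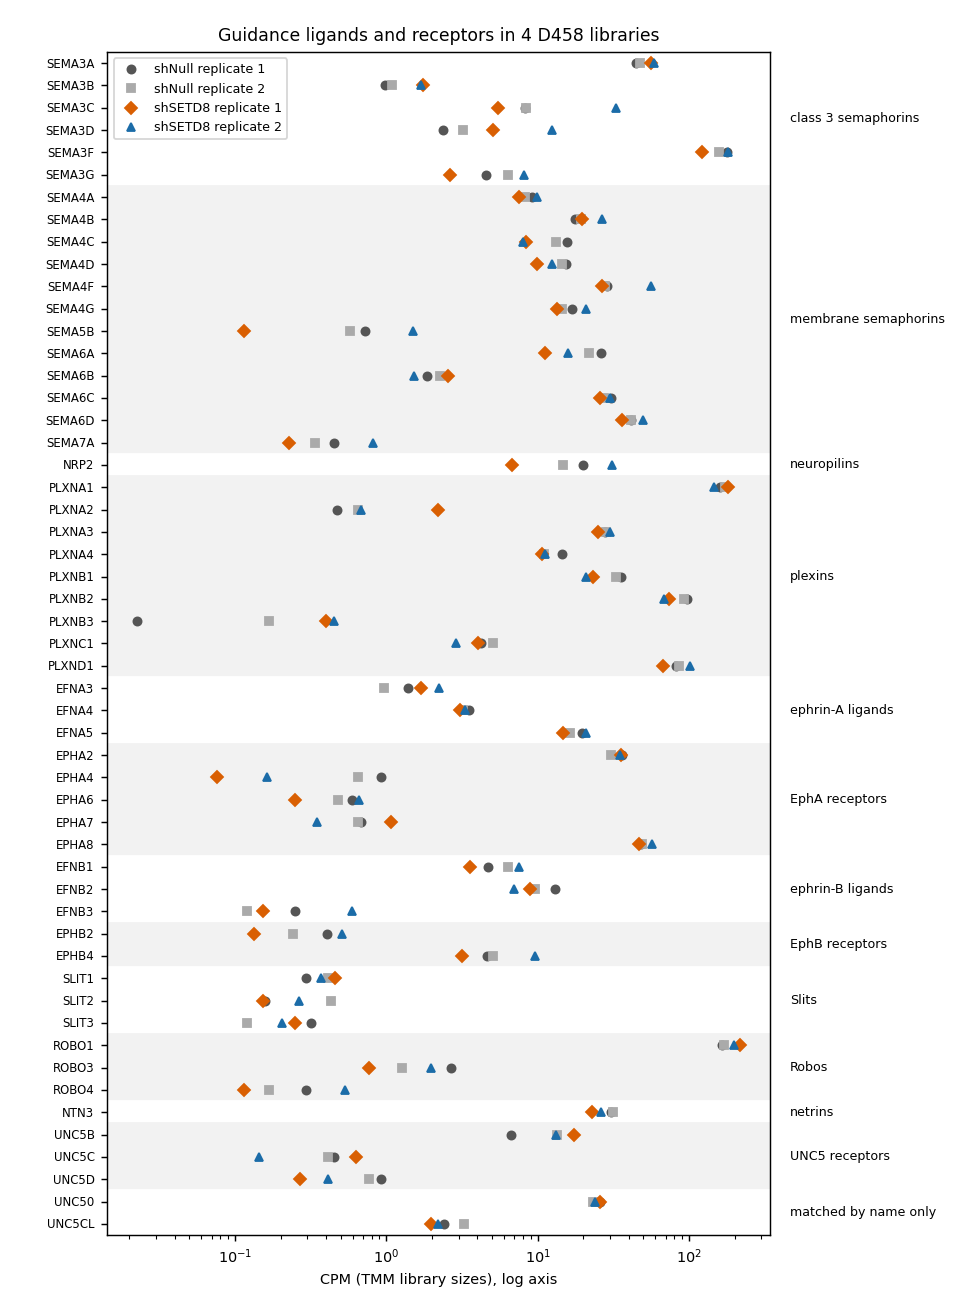
CPM of each of the 53 genes (horizontal log axis) in the 4 libraries, grouped by family; symbols stand for libraries. Levels span from 0.0227 CPM for PLXNB3 to 218 CPM for ROBO1, and the orange and blue symbols of the shSETD8 libraries often stand further apart than the grey and black ones of shNull.

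Levels can be compared between genes once divided by exon length. On that scale, in CPM per kb of exon, SEMA3F was highest with a mean of 38.9 over the 4 libraries, followed by ROBO1 at 23.9, PLXNA1 at 18.1, NTN3 at 14.0, PLXNB2 at 13.0 and PLXND1 at 11.8. The secreted semaphorins thus had an abundant ligand in SEMA3F, which made up 77.7% of their summed level, while the Slits, the ligands of ROBO1, summed to between 0.0916 and 0.126 CPM per kb. Of the 53 genes, 15 had a mean under 1 CPM and 25 one of at least 10 CPM. NRP1, the neuropilin that binds SEMA3A, had 6 and 0 counts in shNull against 5 and 1 in shSETD8, which left NRP2 as the one neuropilin above the minimum.

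**Figure D2:**
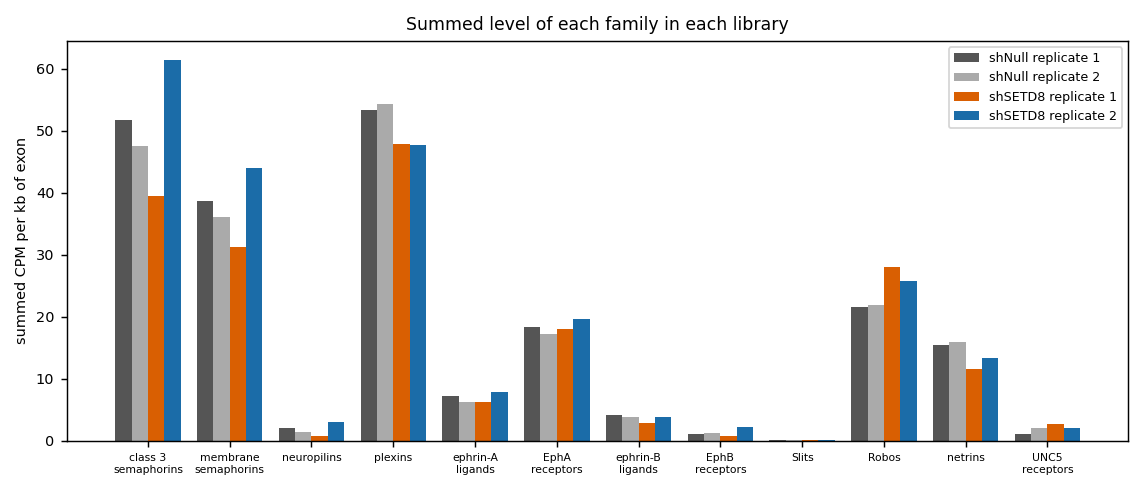
Summed level of each family, in CPM per kb of exon, with 1 bar per library. The plexin sums of both shSETD8 libraries (47.8 and 47.7) lie below those of shNull (53.3 and 54.3) and the Robo sums above (28.0 and 25.8 against 21.6 and 21.9), while the class 3 and membrane semaphorin sums of the shSETD8 libraries lie on either side of shNull.

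Among the membrane semaphorins, SEMA4C, a ligand of plexin-B2, was at 15.6 and 13.1 CPM in the shNull libraries and at 8.43 and 7.97 CPM in the shSETD8 libraries. The groups did not overlap and the shSETD8 libraries were close to each other. Its log2 fold change was -0.81 ± 0.17 (SE), with adjusted p-values of 0.362 in edgeR and 0.0251 in DESeq2. PLXNB2, a receptor of SEMA4C and SEMA4D, was at 97.6 and 93.1 CPM in shNull against 74.3 and 68.4 CPM in shSETD8. Again both shSETD8 libraries were below both shNull libraries, by a log2 fold change of -0.42 ± 0.10 (SE). Its adjusted p was 0.372 in edgeR and 0.0495 in DESeq2, and DESeq2 on all gene rows without a filter gave 0.0661, above the threshold.

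PLXNB1, the high-affinity receptor of SEMA4D that signals to RhoA, was at 35.6 and 32.9 CPM in replicates 1 and 2 of shNull and 23.2 and 20.7 CPM in those of shSETD8. The groups were well apart, and the log2 fold change was -0.64 ± 0.13 (SE), with adjusted p-values of 0.362 in edgeR and 0.0112 in DESeq2. SEMA4D itself was at 15.4 and 14.5 CPM in the shNull libraries and at 9.92 and 12.5 CPM in the shSETD8 libraries. It too was lower in both shSETD8 libraries, but neither edgeR (unadjusted p = 0.0626, adjusted p = 0.478) nor DESeq2 (adjusted p = 0.527) called it. PLXNB3, the receptor of SEMA5A, was close to the limit of detection, with 1 and 7 counts in shNull against 21 and 22 in shSETD8. It reached the minimum only in the shSETD8 libraries and so had to differ in that direction. Its exons overlap those of SRPK3 on the same strand over 19.6% of their length, so its counts are uncertain.

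SEMA6A, a transmembrane ligand of plexin-A2 and plexin-A4, was at 26.4 and 21.9 CPM in shNull against 11.2 and 15.8 CPM in shSETD8. Both shSETD8 libraries lay below shNull with a wider spread than for SEMA4C, and the log2 fold change was -0.84 ± 0.22 (SE), with adjusted p-values of 0.386 in edgeR and 0.0440 in DESeq2. Antisense genes cover 2.91% and 0.629% of its exon length on the opposite strand, and the sources used here do not say whether counting used the strand. Of its receptors, PLXNA2 had 21 and 27 counts in shNull against 115 and 33 in shSETD8, and PLXNA4 was at 14.4 and 11.1 CPM in replicates 1 and 2 of shNull and 10.7 and 11.2 CPM in those of shSETD8. The other class 6 semaphorins overlapped between groups, with log2 fold changes of -0.02 ± 0.36 (SE) for SEMA6B, -0.06 ± 0.14 for SEMA6C and 0.05 ± 0.17 for SEMA6D.

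Of the remaining class 4 semaphorins, SEMA4B was at 17.7 and 19.2 CPM in the shNull libraries and at 19.5 and 26.6 CPM in the shSETD8 libraries and was the one higher in both shSETD8 libraries (log2 fold change 0.32 ± 0.19, SE; edgeR adjusted p = 0.558). SEMA4A and SEMA4G overlapped between groups, with log2 fold changes of 0.00 ± 0.21 (SE) and 0.12 ± 0.25. SEMA4G shares 16.8% of its exon length with MRPL43 on the opposite strand. SEMA7A, which is anchored to the membrane by a lipid and acts through integrins and plexin-C1, had 20 and 14 counts in shNull against 12 and 40 in shSETD8. SEMA5B had 32 and 24 against 6 and 73, the widest gap between the shSETD8 libraries among the 53 genes at 3.29 on the log2 scale. PLXNC1, the receptor of SEMA7A, was at 4.21 and 5.08 CPM in shNull against 4.06 and 2.87 CPM in shSETD8, lower in both shSETD8 libraries with an edgeR adjusted p of 0.605.

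The 5′ flanks of 4 of the 5 genes called by DESeq2 are shown. Of these, PLXNB1, PLXNB2 and SEMA4C were lower together and SEMA3D was higher. The fifth, SEMA6A, was also lower and had no such flank in the RefSeq set used. RefSeq (build GRCh38.p14) gave windows of 250 bases before the start for 46 of the 53 genes, 74 windows in all. Capitals mark GC boxes (GGGCGG on either strand), the letters bound by Sp-family factors, and each sequence reads 5′ to 3′ on the gene's strand, ending at the base before the start. The windows are SEMA4C at chr2:96870081-96870330, PLXNB1 at chr3:48429345-48429594, PLXNB2 at chr22:50301670-50301919 and SEMA3D at chr7:85187057-85187306, all on the minus strand.
SEMA4C: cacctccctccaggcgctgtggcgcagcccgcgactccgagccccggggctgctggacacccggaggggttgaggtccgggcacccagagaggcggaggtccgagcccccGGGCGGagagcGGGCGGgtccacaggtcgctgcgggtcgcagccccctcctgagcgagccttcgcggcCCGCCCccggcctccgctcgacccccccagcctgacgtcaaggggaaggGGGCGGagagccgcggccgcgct
PLXNB1: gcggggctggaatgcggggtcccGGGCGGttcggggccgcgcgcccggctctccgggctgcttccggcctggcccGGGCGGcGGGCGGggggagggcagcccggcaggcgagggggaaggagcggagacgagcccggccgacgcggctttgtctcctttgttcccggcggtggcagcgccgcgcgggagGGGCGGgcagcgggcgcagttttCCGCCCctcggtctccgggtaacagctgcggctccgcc
PLXNB2: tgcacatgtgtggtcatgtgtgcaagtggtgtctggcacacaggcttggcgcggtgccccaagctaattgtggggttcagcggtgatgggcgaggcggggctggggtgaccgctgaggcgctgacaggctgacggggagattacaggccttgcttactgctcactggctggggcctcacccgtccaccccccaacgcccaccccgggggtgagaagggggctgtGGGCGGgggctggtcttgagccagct
SEMA3D: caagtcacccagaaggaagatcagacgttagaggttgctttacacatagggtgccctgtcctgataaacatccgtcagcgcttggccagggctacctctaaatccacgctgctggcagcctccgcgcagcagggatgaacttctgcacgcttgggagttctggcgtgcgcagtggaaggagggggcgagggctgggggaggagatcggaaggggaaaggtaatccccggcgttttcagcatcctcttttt
The SEMA4C window held 4 GC boxes, that of PLXNB1 5, that of PLXNB2 1, and that of SEMA3D 0. Among genes whose groups overlapped, windows held from 0 (PLXNA4) to 12 GC boxes (a window of SEMA3F). A link between GC boxes and direction was not tested. G and C made up 78.0%, 79.2%, 66.4% and 57.6% of the bases of the SEMA4C, PLXNB1, PLXNB2 and SEMA3D windows. A further RefSeq start of PLXNB1, with its window at chr3:48430087-48430336, had 0 GC boxes. At least 1 GC box was found in 53 of the 74 windows (71.6%), against 42.6% of all 35116 windows of the same length. The E-box CACGTG was found in 3 windows (4.05%, against 6.34%) and the AP-1 motif TGANTCA in 1 (1.35%, against 6.57%), both searched on either strand, and no motif contains another. The 35116 windows come from the whole RefSeq set used, with no minimum of counts, while the 74 belong to genes above the minimum. These shares therefore cannot set the guidance genes apart from other expressed genes. A match describes letters in the window and shows no binding.

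Among the secreted class 3 semaphorins, SEMA3D, which repels or attracts axons depending on the axon type in zebrafish, was at 2.38 and 3.20 CPM in replicates 1 and 2 of shNull and 5.07 and 12.4 CPM in those of shSETD8. Both shSETD8 libraries lay above both shNull libraries, and shSETD8 replicate 2 was 1.28 above replicate 1 on the log2 scale. The log2 fold change was 1.65 ± 0.47 (SE), with adjusted p-values of 0.404 in edgeR and 0.0467 in DESeq2. SEMA3A, the founding vertebrate semaphorin and a repellent of sensory axons, was at 44.5 and 47.6 CPM in the shNull libraries and at 56.4 and 58.7 CPM in the shSETD8 libraries. The groups did not overlap and each was tight, but the difference was small (log2 fold change 0.32 ± 0.10, SE), with adjusted p-values of 0.424 in edgeR and 0.277 in DESeq2.

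SEMA3F, which repels axons through neuropilin 2 and plexin-A3, was at 178 and 157 CPM in shNull against 123 and 182 CPM in shSETD8. Its shSETD8 libraries lay below and above the shNull pair, and the log2 fold change was -0.14 ± 0.20 (SE; edgeR adjusted p = 0.826). SEMA3C was at 8.29 and 8.37 CPM in replicates 1 and 2 of shNull and 5.45 and 32.7 CPM in those of shSETD8, with shSETD8 replicate 1 below shNull and replicate 2 far above it. NRP2, the coreceptor of SEMA3C, SEMA3F and SEMA3G, was at 20.05 and 14.6 CPM in the shNull libraries and at 6.77 and 31.0 CPM in the shSETD8 libraries, again with shNull between the shSETD8 libraries. The group comparison gave log2 fold changes of 1.20 ± 0.78 (SE) for SEMA3C and 0.12 ± 0.67 for NRP2, with edgeR adjusted p-values of 0.594 and 0.963. PLXND1, a receptor of SEMA3E and SEMA3C, was at 82.1 and 86.0 CPM in shNull against 67.2 and 101 CPM in shSETD8, and its log2 fold change was 0.00 ± 0.20 (SE). PLXNA1, the most abundant plexin, was at 159.7 and 173 CPM in replicates 1 and 2 of shNull and 179.9 and 145 CPM in those of shSETD8 and overlapped between groups. PLXNA3, which pairs with neuropilin 2 in the SEMA3F receptor, was at 28.0 and 28.1 CPM in the shNull libraries and at 25.0 and 30.1 CPM in the shSETD8 libraries, with a log2 fold change of -0.02 ± 0.14 (SE). SEMA3B was scarce, at 0.974 and 1.08 CPM in shNull against 1.75 and 1.70 CPM in shSETD8, and higher in both shSETD8 libraries (0.75 ± 0.30, SE; edgeR adjusted p = 0.465).

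**Figure D3:**
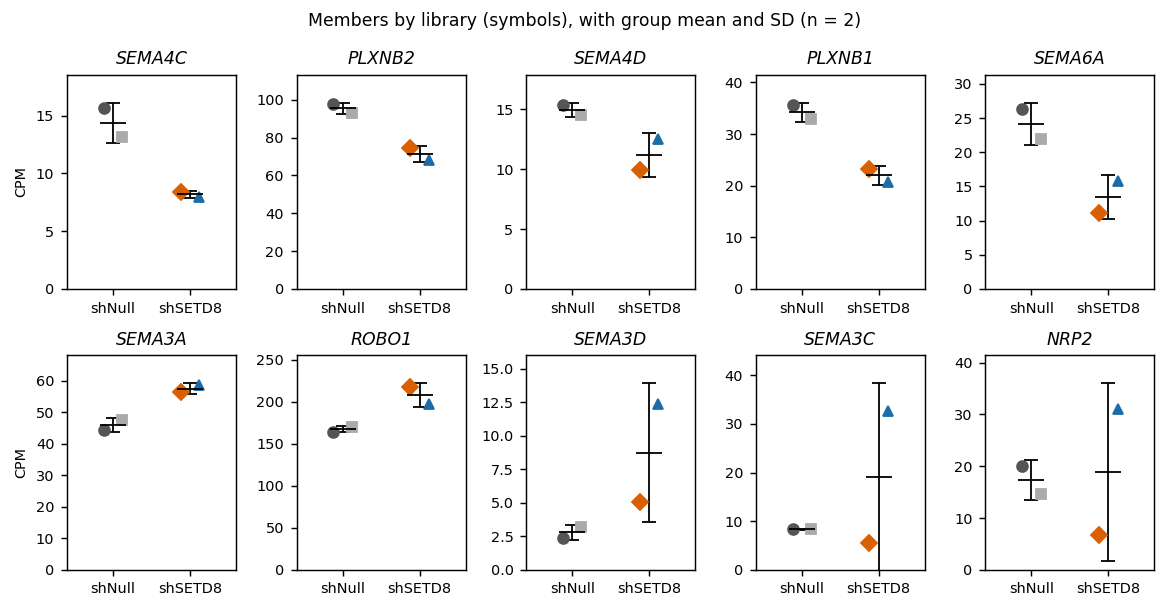
CPM of 10 semaphorins, plexins, neuropilin and Robo in each library (black circle and grey square, shNull replicates 1 and 2; orange diamond and blue triangle, shSETD8 replicates 1 and 2), with the group mean and SD (n = 2 each) on axes that start at 0, where a bar that would pass below 0 is clipped. SEMA4C, PLXNB2, SEMA4D, PLXNB1 and SEMA6A are lower in both shSETD8 libraries, SEMA3A, ROBO1 and SEMA3D higher in both, and for SEMA3C and NRP2 the shSETD8 libraries lie on either side of shNull.

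Of the Eph receptors, EPHA4, which binds ephrins of both classes, stood out by ratio and was scarce, with 41 and 27 counts in shNull against 4 and 8 in shSETD8. The groups did not overlap, and the log2 fold change was -2.70 ± 0.54 (SE), with adjusted p-values of 0.362 in edgeR and 0.181 in DESeq2. EPHA4 reached the minimum only in the shNull libraries and so had to differ in that direction. The abundant Eph receptors EPHA8 and EPHA2 showed no such gap. EPHA8 was at 47.9 and 48.8 CPM in replicates 1 and 2 of shNull and 46.9 and 56.6 CPM in those of shSETD8 (log2 fold change 0.10 ± 0.13, SE). EPHA2, a receptor often raised in carcinomas, was at 36.1 and 30.7 CPM in the shNull libraries and at 35.7 and 35.2 CPM in the shSETD8 libraries (0.09 ± 0.13, SE). EPHB4, which pairs with ephrin-B2 in blood vessels, was at 4.598 and 5.05 CPM in shNull against 3.15 and 9.63 CPM in shSETD8, and its log2 fold change was 0.40 ± 0.53 (SE). Those with low levels overlapped between groups, with EPHA6 at 13 to 32 counts and EPHA7 at 17 to 56. EPHB2 had 18 and 10 counts in shNull against 7 and 25 in shSETD8.

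Of the ephrins, the membrane ligands of the Eph receptors, EFNA5 was the most abundant at 19.7 and 16.4 CPM in replicates 1 and 2 of shNull and 14.8 and 21.0 CPM in those of shSETD8, with overlapping groups and a log2 fold change of -0.01 ± 0.22 (SE). EFNB2 was at 13.1 and 9.57 CPM in the shNull libraries and at 8.85 and 7.00 CPM in the shSETD8 libraries and lower in both shSETD8 libraries, with a log2 fold change of -0.51 ± 0.24 (SE; edgeR adjusted p = 0.492). An opposite-strand gene overlaps 26.0% of its exon length. EFNB1 was at 4.69 and 6.37 CPM in shNull against 3.59 and 7.58 CPM in shSETD8, with the shNull libraries between those of shSETD8. EFNA3 was at 1.38 and 0.962 CPM in replicates 1 and 2 of shNull and 1.70 and 2.23 CPM in those of shSETD8 and higher in both shSETD8 libraries (0.74 ± 0.35, SE; edgeR adjusted p = 0.497). Another annotated gene on the same strand covers 47.9% of its exon length, so its counts are uncertain. EFNA4, of which the same gene covers 15.0%, was at 3.53 and 3.20 CPM in the shNull libraries and at 3.09 and 3.32 CPM in the shSETD8 libraries, and EFNB3 had 5 to 29 counts; both overlapped between groups.

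ROBO1, the Slit receptor that repels commissural axons once they have crossed the midline, was at 164 and 169 CPM in shNull against 218 and 198 CPM in shSETD8. Both shSETD8 libraries lay above both shNull libraries, with a log2 fold change of 0.32 ± 0.09 (SE), an edgeR adjusted p of 0.410 and a DESeq2 adjusted p of 0.179. ROBO1 made up 98.4% of the summed Robo level. ROBO3, which lets commissural axons cross the midline, was at 2.67 and 1.27 CPM in replicates 1 and 2 of shNull and 0.763 and 1.97 CPM in those of shSETD8, and its groups overlapped, as did those of the endothelial receptor ROBO4, with 6 to 26 counts. The Slits were scarce in every library. SLIT1 had 13 and 17 counts in shNull against 24 and 18 in shSETD8, and SLIT2 had 7 and 18 against 8 and 13. The groups overlapped in all 3 Slits, with log2 fold changes of 0.23 ± 0.43 (SE) for SLIT1, -0.49 ± 0.67 for SLIT2 and 0.04 ± 0.61 for SLIT3, and edgeR called none of them (lowest adjusted p = 0.807).

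NTN3, the one netrin above the minimum, was at 30.6 and 31.5 CPM in the shNull libraries and at 22.8 and 26.4 CPM in the shSETD8 libraries. It was lower in both shSETD8 libraries, with a log2 fold change of -0.33 ± 0.13 (SE), an edgeR adjusted p of 0.458 and a DESeq2 adjusted p of 0.460. Of the UNC5 receptors, which mediate repulsion from netrin, UNC5B was at 6.70 and 13.5 CPM in shNull against 17.4 and 13.3 CPM in shSETD8 and differed more within shNull than within shSETD8 (log2 fold change 0.61 ± 0.36, SE). UNC5C had 7 to 33 counts and overlapped. UNC5D had 41 and 32 counts in shNull against 14 and 20 in shSETD8 and did not overlap, with a log2 fold change of -1.33 ± 0.41 (SE; edgeR adjusted p = 0.424, DESeq2 adjusted p = 0.615). Neogenin, encoded by NEO1 and not among the 53, is another netrin receptor and was at 227 and 209 CPM in replicates 1 and 2 of shNull and 182 and 219 CPM in those of shSETD8. Of the genes matched by name only, UNC50, a protein of the Golgi, was at 25.6 and 23.1 CPM in the shNull libraries and at 25.9 and 23.8 CPM in the shSETD8 libraries and UNC5CL at 2.401 and 3.25 CPM in shNull against 1.96 and 2.19 CPM in shSETD8.

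The shSETD8 libraries, 1 from each clone, differed from each other in the guidance genes, mostly in 1 direction. Of the 34 guidance genes with a mean of at least 100 counts, 7 (20.6%) were higher by at least 1 on the log2 scale in shSETD8 replicate 2 than in replicate 1, against 3.77% of all 11604 such genes. These were SEMA3C, NRP2, SEMA3G, EPHB4, SEMA3D, SEMA4F and EFNB1. None of the 34 was higher by as much in replicate 1, against 1.47% of all genes. Between the shNull libraries 1 of the 34, UNC5B, differed that far in either direction (2.94%, against 0.405% of all genes). Over all 53, 36 were higher in shSETD8 replicate 2 than in replicate 1, as were 7168 of the 14546 genes tested. Against the shNull mean, the median of the 53 was -0.23 in shSETD8 replicate 1 and 0.19 in replicate 2 on the log2 scale.

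**Figure D4:**
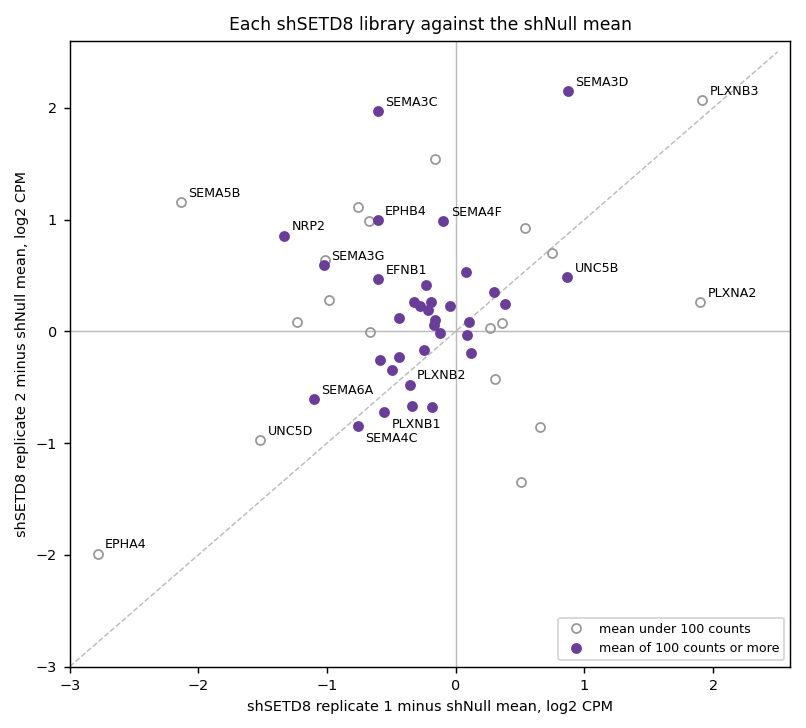
Log2 CPM of each of the 53 genes in shSETD8 replicate 1 (horizontal) and replicate 2 (vertical), each minus the shNull mean, which both axes share; filled points have a mean of at least 100 counts and the dashed line marks equal values. SEMA3C and NRP2 lie below 0 on the horizontal and above 0 on the vertical axis, PLXNB1, PLXNB2, SEMA4C and SEMA6A lie below 0 on both, and SEMA3D above 0 on both.

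SEMA3C had the largest such gap among the 34, at 2.58 on the log2 scale, followed by NRP2 at 2.19, a ligand and its coreceptor. SEMA3G, another ligand of neuropilin 2, was at 4.55 and 6.37 CPM in replicates 1 and 2 of shNull and 2.63 and 8.15 CPM in those of shSETD8. SEMA4F, a membrane semaphorin, was at 28.9 and 28.0 CPM in the shNull libraries and at 26.6 and 56.4 CPM in the shSETD8 libraries. In 6 of the 7 genes, shSETD8 replicate 1 lay below both shNull libraries and replicate 2 above both, for SEMA4F by a small margin in replicate 1. In SEMA3D both lay above. SETD8 was at 14.0 CPM in replicate 1 and 26.4 in replicate 2. The part of the knockdown level, the hairpin, the clone or the preparation of each library in these gaps was not tested. With 1 library a clone they cannot be told apart.

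With 1 library left out, its group holds 1 library and the spread comes from the pair of the other group alone. Calls from these fits hold no spread between clones in the cut group and cannot be set against those over 4 libraries. Without shSETD8 replicate 1 edgeR called 11 of the 53 and 1418 of all genes, or 9.55%, and without shSETD8 replicate 2 it called 17 and 2550, or 17.2%. Without either shNull library it called 0, and DESeq2 called 0 of the 53 and 18 or 46 of all genes. DESeq2 called 8 of the 53 without shSETD8 replicate 1, against 5.55% of all genes, and 6 without replicate 2, against 11.5% of all genes, with PLXNB1 and SEMA4C lower in both and NRP2 called in opposite directions; PLXNB2 (adjusted p = 0.0585 without replicate 2) and SEMA6A (0.0571 without replicate 1) missed the threshold in 1 of these. PLXNB1, PLXNB2, SEMA4C, SEMA6A, SEMA3D, ROBO1 and SEMA3A kept their sign whichever library was left out. Their groups did not overlap, so leaving out 1 library could hardly reverse them. Without shSETD8 replicate 2 the log2 fold change of SEMA3C turned from 1.20 to -0.61 and that of NRP2 from 0.12 to -1.36; without replicate 1 they were 1.97 and 0.83. SEMA3D was 2.15 without shSETD8 replicate 1 and 0.86 without replicate 2.

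**Figure D5:**
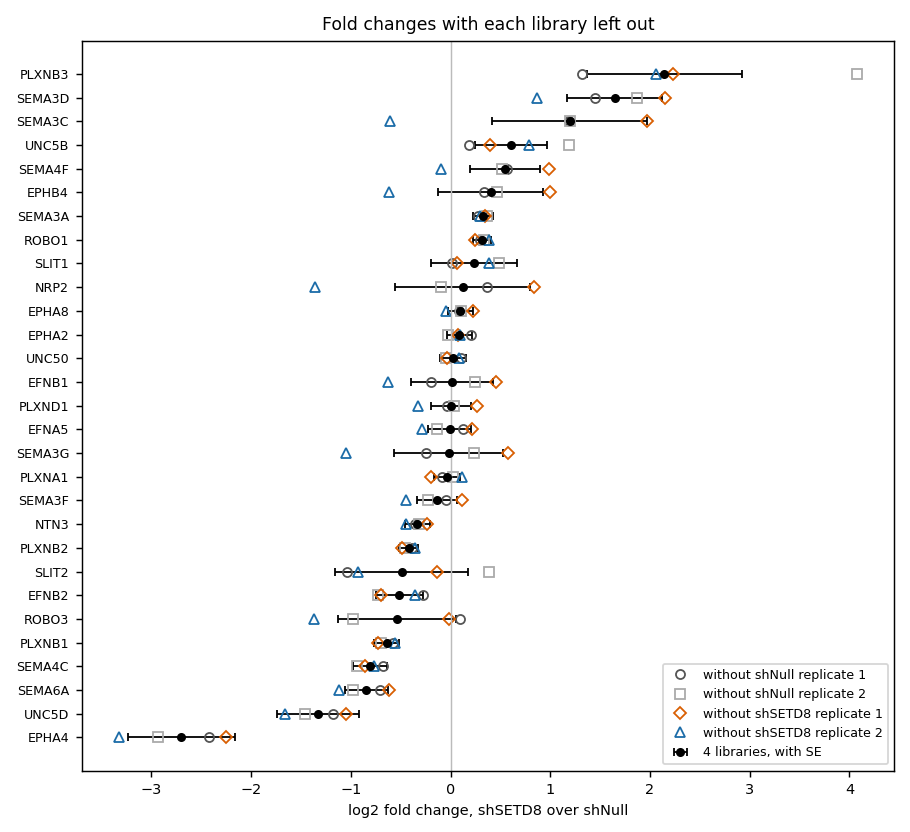
Log2 fold change of shSETD8 over shNull (horizontal) of the guidance genes named by the rule, over all 4 libraries and with each library left out. PLXNB1, PLXNB2, SEMA4C and SEMA6A stay below 0 and SEMA3D, ROBO1 and SEMA3A above 0 throughout, while SEMA3C and NRP2 cross 0. The genes named as staying had groups without overlap, so leaving out a library could hardly turn them.

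The other genes of the guidance pathway were counted over lists of coreceptors and further cues, small GTPases and their exchange factors, kinases and adaptors, and shedding enzymes and matrix partners. Of 133 tested, edgeR's quasi-likelihood test and limma-voom called 0 and edgeR's likelihood ratio test 4 (1.70% of all genes), and at an unadjusted quasi-likelihood p under 0.05 there were 7 higher and 13 lower, against 5.65% and 5.16% of all genes. DESeq2 called 0 higher and 3 lower, FYN, PAK3 and RND3, against 0.946% and 0.974% of all genes. FYN, a Src-family kinase that acts below netrin, semaphorin and ephrin receptors, was at 101 and 100.4 CPM in shNull against 51.9 and 54.5 CPM in shSETD8. The groups were well apart, and its log2 fold change was -0.92 ± 0.09 (SE), with an edgeR adjusted p of 0.289 and a DESeq2 adjusted p of 4.24e-11. RND3, an atypical small GTPase that lowers RhoA signalling, was at 41.4 and 38.4 CPM in replicates 1 and 2 of shNull and 23.0 and 27.9 CPM in those of shSETD8 (-0.65 ± 0.14, SE; DESeq2 adjusted p = 0.0206). PAK3, a Rac and Cdc42 effector kinase, was at 3.49 and 3.03 CPM in the shNull libraries and at 1.11 and 1.17 CPM in the shSETD8 libraries (-1.52 ± 0.28, SE; DESeq2 adjusted p = 0.0313).

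By list, the 25 coreceptors and cues had 1 gene higher and 3 lower at an unadjusted edgeR p under 0.05 and a median log2 fold change of -0.11. The shares over all genes, to set beside each list, were 5.65% higher and 5.16% lower. The coreceptors and cues that passed were RGMA (1.41 ± 0.54, SE), FLRT2 (-1.29 ± 0.37), BOC (-0.72 ± 0.28) and PTCH1 (-0.29 ± 0.11); BOC and PTCH1 are a coreceptor and the receptor of Sonic hedgehog. The 33 small GTPases and exchange factors had 0 higher and 5 lower with a median of -0.11, among them ARHGEF28 (-0.47 ± 0.12), FARP1 (-1.77 ± 0.47) and the Rac inhibitor CHN2 (-0.56 ± 0.18). The 43 kinases and adaptors had 4 higher and 3 lower with a median of 0.01, among them the cofilin kinase LIMK1 (0.31 ± 0.11). The 32 genes of the shedding and matrix list had 2 higher, among them GRIP1 (0.41 ± 0.11), an intracellular scaffold rather than a shedding or matrix gene. They had 2 lower, GPC4 (-2.06 ± 0.78) and HS6ST2 (-2.09 ± 0.46), with a median of -0.02. The edgeR adjusted p of these genes ran from 0.362 to 0.458.

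Markers of other cell types were counted in the same libraries, since in bulk RNA fewer cells of a type and less RNA per cell cannot be told apart. The medulloblastoma markers, 8 tested of 10, summed to 6605 and 6238 CPM in shNull and 6281 and 6409 in shSETD8. The neuronal markers, 5 tested of 6, summed to 300.4 and 217 CPM against 142 and 235, and 4 of the 5 had a log2 fold change below 0, with SNAP25 at 1 to 13 counts. The lone glial marker tested, OLIG2, was at 17.2 and 18.0 against 16.1 and 18.1 CPM, with GFAP at 3 to 13 counts. The fibroblast markers, 4 tested of 7, summed to 70.3 and 61.1 CPM against 41.2 and 50.5; DCN and LUM were lower and COL1A1 and PDGFRB higher in both shSETD8 libraries, DESeq2 called LUM among them, and COL1A2 had 4 to 13 counts. The endothelial marker CLDN5 was at 0.657 and 0.505 against 1.18 and 0.553 CPM, with VWF at 1 to 5 counts.

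The immune markers, 2 tested of 5, summed to 1.90 and 2.29 CPM against 2.25 and 2.13, with CD14 at 2 to 5 counts. The epithelial markers, 3 tested of 6, summed to 0.680 and 1.01 CPM in shNull and 4.37 and 12.02 in shSETD8. DESeq2 called KRT8 and KRT18 higher among them, while the defining epithelial genes EPCAM and CDH1 had 0 to 8 counts in every library. The epithelial sum moved in the same direction as SEMA3D, with the higher value in shSETD8 replicate 2 for both. The neuronal sum was lowest in shSETD8 replicate 1, as were NRP2 and other guidance genes such as SEMA3C and SEMA3F. In shSETD8 replicate 2 the neuronal sum (235 CPM) lay between the shNull values, while NRP2 (31.0 CPM) lay above both of its shNull values. The fibroblast sum was lower in both shSETD8 libraries, as were PLXNB1, PLXNB2, SEMA4C and SEMA6A. The 4 fibroblast markers tested did not move together, with COL1A1 and PDGFRB higher and DCN and LUM lower in both. The part of other cell types in these values was not tested.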

How the data were processed

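Poly(A)-selected RNA of 4 D458 libraries was sequenced with a stranded kit, per the labels' protocols. Whole-number counts per gene, not normalised, were deposited by the authors. The submitters' processing notes list the build hg19 and the tools STAR 2.4.0.1, Trimmomatic 0.36, DESeq 1.32.0 and FastQC 0.10.1. The sources used here do not name the counting program or its use of strand. Another 2 columns matched no sample and were not used. Of 16839 rows, 65 had no usable symbol and stayed in the fit, 23 of them named by Entrez identifier. Those with a blank symbol took 0.241% to 0.276% of counts.

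The main test was the quasi-likelihood F test of edgeR 4.0.16 under R 4.3.3, with TMM normalisation (factors 0.992 to 1.02) and filterByExpr, which kept 14546 genes, with Benjamini-Hochberg adjustment over all of them and a threshold of 0.05. Log2 fold changes are shSETD8 over shNull, and each standard error is the absolute fold change divided by the root of its F statistic. CPM uses TMM library sizes; differences between single libraries are of log2 CPM (prior count 2). DESeq2 1.42.0, edgeR's likelihood ratio test, limma-voom (limma 3.58.1), another normalisation, no filter, other thresholds and each library left out were the alternatives; DESeq2 with a library left out and on all rows was chosen after the data had been seen. A library left alone in its group is taken to vary as the other group does. The edgeR and DESeq2 fits were tested on simulated counts, where both made false calls and DESeq2 made more of them. An exact permutation test of 2 against 2 libraries cannot go below p = 0.333 (two-sided), so none was run. Libraries of a group differed by a chi-square per gene of 16.4 in shNull and 71.8 in shSETD8, so neither pair agreed within sampling noise.

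Exon lengths came from GENCODE (GRCh38, all 53 genes matched by Entrez identifier) and promoter windows from RefSeq (GRCh38.p14); no coordinate of the authors' build is printed. Named genes were, per family, the 2 with the highest mean CPM, every gene with an unadjusted edgeR p or a DESeq2 adjusted p under 0.05, those with a mean of at least 100 counts and a difference of at least 1 (log2) within a group, and up to 4 of each list of other guidance genes with the lowest p. Other members are named to give a range. Of the genes this rule names in those lists, 2 are not reported here. The members, lists and rules were chosen with earlier results of these data known.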

Additional observations from a re-analysis of the deposited data

How the results depend on the processing

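Members called were 0 in edgeR's quasi-likelihood test (0% of all genes), 5 in DESeq2 (1.92%), 2 in the likelihood ratio test (EPHA4 and PLXNB1; 1.70%), and 0 to 17 with a library left out (0% to 17.2%); other guidance genes called were 0, 3, 4 and 0 to 35. Members at an unadjusted edgeR p under 0.05 were 11, and 1 to 26 with a library left out; members without overlap were 19, and 24 to 50; members called by DESeq2 were 5, and 0 to 8. Fewer libraries make a gap between groups more frequent by construction. For unadjusted p and for overlap, the shares over all genes with a library left out are not given. Those ranges therefore cannot set the members against other genes. Over all 4 libraries, 15.1% of members lay above without overlap and 20.8% below, against 22.9% and 22.4% of all genes. At an unadjusted edgeR p under 0.05, 7.55% were higher and 13.2% lower, against 5.65% and 5.16%. Both sets of shares include PLXNB3 (higher) and EPHA4 (lower), whose direction was fixed because each reached the minimum in only the group where it was higher. SETD8 had a log2 fold change of -0.998, and of -1.53 to -0.61 with a library left out. The size factors of DESeq2, no filter and the other thresholds moved none of these counts by over 1.5 times. The median over the members ran from -0.26 to 0.19 with a library left out. Of 29 named members, 14 kept their sign under all 9 settings, 12 reversed only with a library left out, and 3 also under limma-voom: EFNB1 (-0.078), NRP2 (-0.27) and PLXND1 (-0.030). Members without overlap could hardly reverse with a library left out. The reversed members ran, with a library left out, from -0.29 to 0.22 for EFNA5, -0.62 to 0.45 for EFNB1, -0.028 to 0.21 for EPHA2, -0.045 to 0.22 for EPHA8, -0.62 to 0.99 for EPHB4, -1.36 to 0.83 for NRP2, -0.20 to 0.11 for PLXNA1, -0.32 to 0.26 for PLXND1, -1.37 to 0.10 for ROBO3, -0.61 to 1.97 for SEMA3C, -0.45 to 0.12 for SEMA3F, -1.05 to 0.58 for SEMA3G, -0.10 to 0.98 for SEMA4F, -1.04 to 0.39 for SLIT2 and -0.051 to 0.10 for UNC50; the cause was not tested. Members under 1 CPM rest on few counts. No paired analysis was possible because replicate numbers follow record order and the labels pair no clones.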
